A study of Mus musculus with 18 samples.

Results

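Among the cells recovered from implanted biomaterial scaffolds, 474 carried transcripts of Ccl24 or Clec4n and stayed under set limits on the marks of the other scaffold macrophages, and they are described here as the gated cells. They were 474 of 7082 cells kept from 6 scaffold libraries, and 19761 cells were kept from all 18 libraries of scaffold, lung and spleen. The cells were chosen by measured values, the UMIs of 10 gate genes. A cell entered with 2 or more unique molecular identifiers (UMIs, each standing for a captured transcript) of Ccl24 and Clec4n summed. It also needed fewer than 3 UMIs of C1qa, C1qb and C1qc, fewer than 2 of the genes Gpnmb, Spp1 and Mmp12 detected, and S100a8 plus S100a9 below 5% of its UMIs. Set against other scaffold cells, levels of these gate genes are therefore descriptions with no test, and the same holds for Fn1, Ass1 and F10, which came with the label of these cells.

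The scaffolds came from female BALB/cJ mice. In the tumour-bearing mice a mammary fat pad had been inoculated with 4T1-tdTomato-luc2 cells, a mouse mammary carcinoma line with a fluorescent and a luciferase reporter, and the time-matched healthy mice had received no tumour cells. Each condition gave 1 scaffold library at day 7 (mice of 9 weeks), day 14 (10 weeks) and day 21 (11 weeks) after inoculation, so 3 tumour-bearing libraries stood against 3 healthy ones. Cells were captured with Drop-seq, which isolates single cells with barcoded beads in droplets. The labels do not say how many mice gave a library or what the scaffold was made of, so p-values measure the spread between libraries. These were transplanted tumours of a single cell line.

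Monocytes leave the blood, enter tissue and implanted materials, and become macrophages, losing monocyte transcripts such as Ly6c2 while they gain those for uptake and lysosomal digestion. CCL24, also called eotaxin-2, is a CC chemokine that attracts eosinophils through the receptor CCR3, and mouse macrophages make it in response to interleukin-4. Clec4n encodes Dectin-2, a C-type lectin that binds mannose-rich glycans and signals through the Fc receptor gamma chain. Fn1 encodes fibronectin, an adhesive matrix protein, Ass1 encodes argininosuccinate synthase, which rebuilds arginine from citrulline, and F10 encodes coagulation factor X, the protease that cuts prothrombin.

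The 6 scaffold libraries held 961 to 1932 barcodes and 2068925 to 4530115 UMIs, and 747 to 1634 cells were kept in each with a median of 892.5 to 1408 UMIs. Between 36 and 914 barcodes of a scaffold library also occurred in another library of the same day. Of the gated cells, 38 carried such a barcode, 27 of them in the healthy day 21 library, and they were kept because their UMIs were at least 5 times those of the next library. At day 7, 18 gated tumour-bearing cells and 14 gated healthy cells had barcodes that matched that of another gated cell of their library in the first 11 bases. Results without the barcode rule and with such barcodes merged are in the closing section.

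Of the 474 gated cells, 69 held Ccl24 alone, 150 held both genes and 255 held Clec4n alone, so most members entered through Clec4n. Ccl24 summed to 1010 UMIs, with up to 67 in a cell, and Clec4n to 1500 UMIs, with up to 26 in a cell. Ccl24 was detected in 24.3%, 56.5% and 59.4% of the gated cells of tumour-bearing mice at days 7, 14 and 21, and in 27.3%, 69.4% and 46.6% of those of healthy mice. Both day 7 libraries were thus the lowest. Free RNA in droplets can place a UMI in a cell that does not make it. In 208 scaffold cells with T, NK or B cell markers, with a median of 940 UMIs against 1488.5 in the gated cells, Ccl24 was detected in 1.44% and Clec4n in 1.92%, and 1.44% had 2 or more UMIs of the pair.

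The threshold cut a gradual range. Across all cells that met the other conditions, 2349 had none of the pair, 288 had 1 UMI, 145 had 2, 96 had 3 and 233 had 4 or more. Cells with 2 UMIs, just inside, held 1184 Fn1, 166 Ass1 and 244 F10 CPM (UMIs of the gene in every 1000000 UMIs of the class) and a median of 1114 UMIs. Those with 1 UMI, just outside, held 796, 107 and 184 CPM of the same genes and a median of 965 UMIs. The monocyte genes Ly6c2 and Ccr2 did not follow that pattern. Over cells with 0, 1, 2, 3 and 4 or more UMIs of the pair, Ly6c2 held 246, 235, 244, 286 and 140 CPM. Ccr2 held 939, 1321, 1651, 1445 and 1087 CPM in the same order. These 2 genes therefore do not set gated cells apart from the cells below the minimum. At the C1q limit, 14 cells had 2 UMIs and 13 had 3. At the limit on Gpnmb, Spp1 and Mmp12, 312 of the 474 gated cells had 1 gene detected, and 176 cells just outside had 2. Of 1086 scaffold cells with 2 or more UMIs of Ccl24 and Clec4n, 40 were placed outside by S100a8 and S100a9. Of those left, 409 were placed outside by Gpnmb, Spp1 and Mmp12, whatever their C1q, and then 163 by C1q.

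Gated cells made up 7.72% (103 of 1334), 5.91% (46 of 779) and 2.44% (32 of 1309) of the kept scaffold cells of tumour-bearing mice at days 7, 14 and 21. In healthy mice they made up 8.84% (66 of 747), 6.79% (111 of 1634) and 9.07% (116 of 1279). The exact 95% binomial interval of the tumour-bearing day 21 share, 1.68% to 3.43%, lay below that of healthy day 21, 7.55% to 10.8%, whereas the intervals at days 7 and 14 overlapped. Intervals cover counting error only. The means were 5.36% ± 2.68 in tumour-bearing and 8.23% ± 1.25 in healthy scaffolds (SD, n = 3 each). Their difference of -2.88 percentage points did not pass a 2-sided exact permutation test (p = 0.2, the smallest possible being 0.1), and without the tumour-bearing day 21 library it was -1.42 points. Cells with 5% or more of their UMIs in S100a8 and S100a9, which the gate leaves out, were 10.9%, 17.6% and 43.5% of tumour-bearing scaffold cells and 4.69%, 0.857% and 11.3% of healthy ones. Among the cells under that limit, the gated share was 8.67%, 7.17% and 4.32% in tumour-bearing mice and 9.27%, 6.85% and 10.2% in healthy mice (exact permutation p = 0.3). With every cell thinned to 500 UMIs the mean share was 3.07% in tumour-bearing and 5.17% in healthy scaffolds, a difference of -2.10 points.

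**Figure D1:**
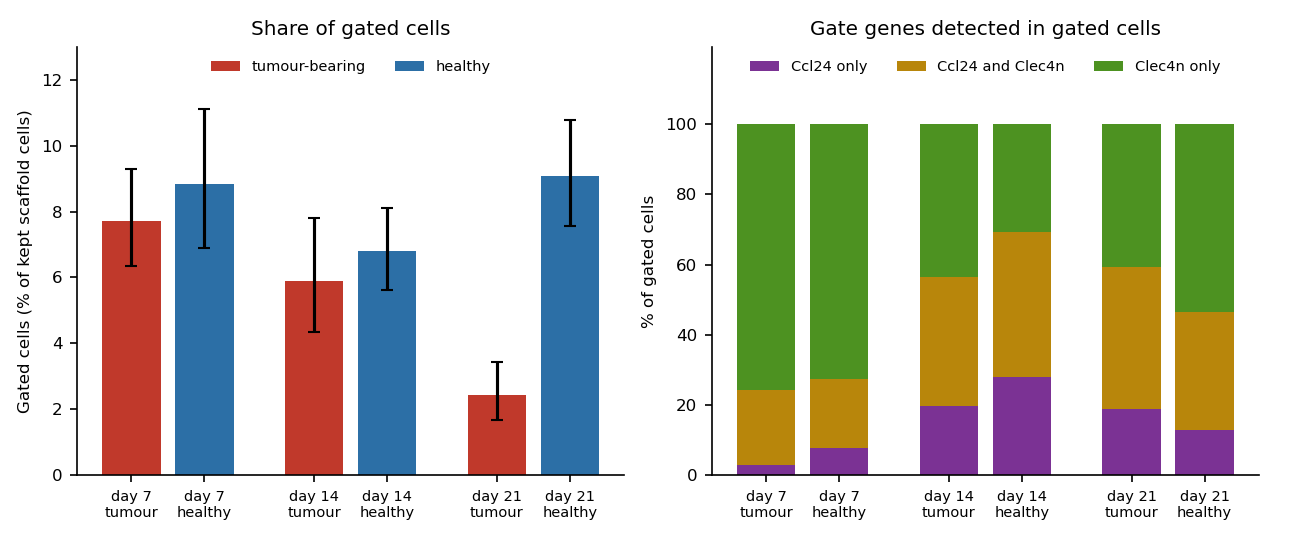
Left, gated cells as a percentage of kept scaffold cells by day, tumour-bearing (red) beside healthy (blue), with exact 95% binomial intervals. Right, the percentage of gated cells with Ccl24 only, both genes or Clec4n only. The tumour-bearing day 21 bar, at 2.44%, is the lowest, and Clec4n alone fills the largest part of both day 7 bars.

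The label was set against markers. All 7 monocyte markers had UMIs in gated cells and summed to 1607 to 3720 CPM per library, against 902 to 1746 CPM in the complement-high and 289 to 566 CPM in the Gpnmb, Spp1 and Mmp12 cells described further on. The gated and complement-high ranges overlapped. All 7 macrophage markers outside the gate had UMIs as well, at 2590 to 3429 CPM. The same markers summed to 2808 to 5260 CPM in complement-high and 2980 to 3623 CPM in Gpnmb, Spp1 and Mmp12 cells, with overlapping ranges. Lyz2, the lysozyme of myeloid cells, was detected in 96.4% of gated cells, against 39.9% of lymphocyte-marker cells. Ccr2, the receptor that brings monocytes out of the marrow, was detected in 49.4%, but also in 39.4% of lymphocyte-marker cells. Cd14, the co-receptor for lipopolysaccharide, was in 66.9%, against 3.37% of lymphocyte-marker cells. Emr1, which encodes F4/80, was in 6.75%, against 0.481%. It was in 25.0% of complement-high and 20.8% of Gpnmb, Spp1 and Mmp12 cells, which had higher median depths. Ly6c2 was in 14.6% of gated cells, against 3.85% of lymphocyte-marker, 2.62% of complement-high and 2.80% of Gpnmb, Spp1 and Mmp12 cells. Monocyte and macrophage transcripts were thus present in the same population.

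Markers of other cell types were low apart from neutrophil and fibroblast genes. T cell markers summed to 0 to 32.6 CPM per library (4 of 5 with UMIs, Cd3e at 0). Natural killer markers reached at most 8.15 CPM (3 of 4, Gzma at 0), B cell markers 16.7 CPM and dendritic cell markers 17.1 CPM (4 of 5, Xcr1 at 0). The 3 eosinophil markers, Ccr3, Epx and Prg2, had no UMI in 474 gated cells, which, at 3 counts, allows a share of cells with a UMI of up to 0.633%. Mast cell and basophil markers reached 16.7 CPM, endothelial markers 22.6 CPM (Cdh5 at 0), platelet markers 20.4 CPM and epithelial markers 8.15 CPM (Krt8 and Krt18 at 0). Neutrophil markers other than S100a8 and S100a9 had UMIs for 4 of 4 genes and summed to 196, 67.7 and 141 CPM in tumour-bearing libraries, against 205, 58.6 and 110 CPM in healthy ones. Their mean was 130 ± 62.3 CPM (SD), against 95.8 ± 105 CPM in complement-high and 77.2 ± 82.8 CPM in Gpnmb, Spp1 and Mmp12 cells. The 4 fibroblast markers summed to 3699, 11.3 and 16.6 CPM in tumour-bearing libraries at days 7, 14 and 21, against 28.5, 1599 and 632 CPM in healthy ones. Most of that came from 5 gated cells with 55 to 904 collagen and Dcn UMIs each, all of which also held Ccl24, and 2 to 37 UMIs of Lyz2. Whether those barcodes held 2 cells was not tested, and no doublet caller was run. Counts of called genes are also given for each comparison without cells that held 2 or more UMIs of these 4 markers (fibroblast-marker cells).

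Fn1 held 1020, 1162 and 1699 CPM in gated cells of tumour-bearing mice at days 7, 14 and 21, against 1565, 1155 and 1642 CPM in those of healthy mice. The groups overlapped, and the mean over the 6 libraries was 1374 ± 294 CPM (SD). In the complement-high cells Fn1 averaged 173 ± 67.7 CPM and in the Gpnmb, Spp1 and Mmp12 cells 632 ± 245 CPM. The lowest gated library, at 1020 CPM, lay above every complement-high library but below the highest Gpnmb, Spp1 and Mmp12 library, at 1103 CPM.

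Ass1 held 314, 395 and 149 CPM in gated cells of tumour-bearing mice, against 262, 310 and 249 CPM in those of healthy mice. The tumour-bearing day 21 library, with 32 gated cells, was the lowest. Ass1 averaged 280 ± 82.0 CPM in gated cells, 14.7 ± 14.4 CPM in complement-high cells and 60.0 ± 29.0 CPM in Gpnmb, Spp1 and Mmp12 cells, and the lowest gated library lay above every library of both other classes. Arg2, a mitochondrial arginase that splits arginine, averaged 55.6 ± 8.36 CPM in gated cells and Arg1, the cytosolic arginase, 33.0 ± 41.9 CPM.

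F10 held 306, 564 and 339.7 CPM in gated cells of tumour-bearing mice, against 415.5, 359.9 and 424 CPM in those of healthy mice. Its mean was 401 ± 91.4 CPM in gated cells, 40.9 ± 21.6 CPM in complement-high cells and 126 ± 22.6 CPM in Gpnmb, Spp1 and Mmp12 cells, with no overlap between gated libraries and the other classes. F10 (chr8:13037308-13056676, GRCm38.p6) lies next to F7 (chr8:13025506-13035809), which encodes the factor VII that activates it.

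The gate genes themselves varied more. Ccl24 (chr5:135569935-135573123) held 412, 1128 and 812 CPM in tumour-bearing libraries, against 905, 2302 and 1129 CPM in healthy ones. At each day the healthy library was the higher, and the groups overlapped over the days. Clec4n (chr6:123229843-123247024) held 1701, 1703 and 762 CPM in tumour-bearing libraries, against 1463, 1992 and 1406 CPM in healthy ones. The tumour-bearing day 21 library was the lowest for Clec4n.

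Promoters of 3 genes are printed because their genes carry results below: Clec4e, the neighbour of Clec4n that stood above both other macrophage classes, Retnla, which was lower with the tumour, and F10, a label marker. Each is the 250 bases before the RefSeq start on GRCm38.p6, given on the gene's strand. Capitals mark matches on either strand to GAGGAA (PU.1 type, in 23.3% of 32851 promoters of that length), TTNNGCAA (C/EBP type, 9.56%) and a STAT6-type motif, TTC and GAA with 4 bases between them (5.85%). They are chr6:123289872-123290121 on the minus strand, chr16:48842359-48842608 on the plus strand and chr8:13037058-13037307 on the plus strand.
Clec4e: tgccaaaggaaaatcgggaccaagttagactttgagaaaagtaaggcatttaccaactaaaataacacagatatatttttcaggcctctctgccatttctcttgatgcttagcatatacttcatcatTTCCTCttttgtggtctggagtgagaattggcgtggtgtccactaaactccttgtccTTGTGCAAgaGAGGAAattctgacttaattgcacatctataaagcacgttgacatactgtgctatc
Retnla: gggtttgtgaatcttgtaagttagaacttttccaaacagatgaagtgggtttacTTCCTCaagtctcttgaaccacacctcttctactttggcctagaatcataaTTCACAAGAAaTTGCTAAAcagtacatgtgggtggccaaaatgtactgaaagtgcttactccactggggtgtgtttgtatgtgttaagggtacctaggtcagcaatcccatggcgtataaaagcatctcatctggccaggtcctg
F10: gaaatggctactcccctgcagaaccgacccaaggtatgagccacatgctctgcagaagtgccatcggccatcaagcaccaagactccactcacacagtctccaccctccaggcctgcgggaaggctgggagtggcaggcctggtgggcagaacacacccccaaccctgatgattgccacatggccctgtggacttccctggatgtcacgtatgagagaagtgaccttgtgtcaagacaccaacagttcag
The Clec4e window held 2 PU.1-type matches and 1 C/EBP-type match. The Retnla window held 1 match of each type, with the STAT6-type and C/EBP-type matches separated by 1 base. The F10 window held none, which says only that these letters are not in that window.

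The first comparison set gated cells against the complement-high cells of the same libraries, 1067 cells with 3 or more C1q UMIs. Most tested genes of the monocyte, inflammatory and glycolysis lists were called higher in gated cells, and most of the macrophage and lysosomal lists lower. Both classes were cut by gate genes, so these values describe how far apart the classes lie. UMIs were summed per class and library and tested with edgeR's quasi-likelihood test with library as a block, and genes with a Benjamini-Hochberg adjusted p under 0.05 were called. Of 4989 genes tested, gate genes and label markers left out, 1030 were called (20.6%), with 488 higher (9.78%) and 542 lower (10.9%) in gated cells. Scaling by library totals alone called 631 higher and 414 lower and put the median log2 fold change of all genes at 0.10, against -0.02 with the main scaling, so the split between directions depends on the scaling.

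Among the called genes furthest higher in gated cells in all 6 libraries, Slc7a11, the cystine importer, averaged 201 ± 83.3 CPM in gated and 6.72 ± 8.08 CPM in complement-high cells, a log2 fold change of 5.06 (SE 0.32, adjusted p = 1.6e-09). Vcan, the proteoglycan versican of classical monocytes, averaged 480 ± 199 and 21.9 ± 14.0 CPM in the same order, 4.26 on the log2 scale. Cxcl3, a neutrophil attractant, Slpi, an antiprotease, Il1f9, which encodes interleukin-36 gamma, and Csf1, the growth factor of macrophages, were 5.18, 4.73, 4.23 and 3.90 higher. Ptgs2, which makes prostaglandin precursors, Gpr84, a fatty acid receptor, Hp, haptoglobin, Chi3l3, the chitinase-like protein Ym1, Irg1, which makes itaconate, and Olr1, a receptor for oxidised lipoprotein, were 3.55 to 3.78 higher.

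Ccl8, a chemokine of tissue macrophages, averaged 48.3 ± 69.5 CPM in gated and 4572 ± 2088 CPM in complement-high cells, a log2 fold change of -6.91 (SE 0.35, adjusted p = 1.2e-10). Sepp1, which encodes the selenium carrier selenoprotein P, averaged 325 ± 161 and 5262 ± 2255 CPM in the same order, -4.17. Gas6, a bridge between dying cells and the receptors AXL and MERTK, Cbr2, Ednrb, Folr2, a folate receptor, Nxpe5, Gpr34, Rnf150 and Fcgrt, the neonatal Fc receptor, lay between -3.85 and -4.59. Iigp1 and Slc9a9 were also called lower, with 2 and 3 UMIs over all gated cells, and are given no fold.

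By list, 11 of 15 tested monocyte genes were called higher and 2 lower, with a median log2 fold change of 1.41. Over all genes tested, 9.78% were called higher and 10.9% lower. Ly6c2, the classical monocyte antigen, was 2.52 higher and Ccr2 0.91 higher. All 20 tested glycolysis and hypoxia genes were higher, 19 of them called, with a median of 1.3. Ldha, lactate dehydrogenase, averaged 605 ± 140 CPM in gated and 245 ± 47.7 CPM in complement-high cells, Hif1a, the oxygen-regulated factor, was 1.62 higher and Vegfa, an angiogenic factor, 2.78 higher. Of 17 inflammatory genes 13 were called higher and none lower. Of 18 lysosomal genes none was called higher and 15 lower, among them the cathepsin gene Ctsb at -1.65. Of 14 macrophage genes 2 were called higher and 12 lower. Among the lower ones was Mrc1, the mannose receptor, at 131 ± 32.0 CPM in gated and 1428 ± 540 CPM in complement-high cells. Of 8 MHC class II genes 5 were called lower, with Cd74, the invariant chain, at -0.81.

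The second comparison set gated cells against 1858 scaffold cells with 2 or more of Gpnmb, Spp1 and Mmp12, genes of lipid-laden macrophages. These cells also had S100a8 plus S100a9 below 5% of UMIs, but no limit on C1q was set for them. Gated cells were again higher in monocyte and inflammatory genes, and here they were higher in MHC class II as well. They were lower in lipid-handling, lysosomal and cell cycle genes. Of 7409 genes tested in the same way 1425 were called (19.2%), 695 higher (9.38%) and 730 lower (9.85%).

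Il1b, the cytokine interleukin-1 beta, averaged 1403 ± 855 CPM in gated and 99.6 ± 34.6 CPM in Gpnmb, Spp1 and Mmp12 cells, a log2 fold change of 3.68 (SE 0.19, adjusted p = 3.7e-16). Its gated values were 2317 (day 7), 1274 (day 14) and 605 CPM (day 21) in tumour-bearing mice, against 1736, 243 and 2245 CPM in healthy mice, so the healthy day 14 library was far below the others. Vcan was 3.96 higher, Ly6c2 3.82 and Plac8, another monocyte gene, 3.55. Cxcl10, an interferon-induced chemokine, was 4.91 higher and Niacr1, the hydroxybutyrate receptor, 4.20. Chi3l3, Il1f9, Ptgs2, Gpr84, Ear2, a ribonuclease, and Fpr2, a receptor for formyl peptides, were 3.09 to 4.01 higher.

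Atp6v0d2, a proton pump subunit, averaged 55.0 ± 18.0 CPM in gated and 1089 ± 170 CPM in Gpnmb, Spp1 and Mmp12 cells, a log2 fold change of -4.28 (SE 0.15, adjusted p = 3.3e-20). The fatty acid binding protein genes Fabp4 and Fabp5 were at -3.95 and -2.86, Mfge8, which marks dying cells for uptake, at -3.78, Folr2 at -3.73 and Ctsk, cathepsin K, at -2.75. Tm4sf19, Syngr1, Ckb, a creatine kinase, Stmn1, which binds tubulin, and Hpgds, a prostaglandin synthase, lay between -2.79 and -2.93. Zranb3, a helicase, had 1 UMI in all gated cells and 148 ± 35.6 CPM in the other class, so no fold is given.

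Of 15 monocyte genes 11 were called higher and none lower (median 2.04), and of 18 inflammatory genes 17 were called higher and none lower (median 2.10). Over all genes tested, 9.38% were called higher and 9.85% lower. Of 10 chemokine receptor genes 8 were called higher, with Ccr2 at 1351 ± 342 CPM in gated and 261 ± 98.4 CPM in Gpnmb, Spp1 and Mmp12 cells. Of 8 MHC class II genes 7 were called higher, including H2-Aa at 1.296 and Cd74 at 1.02, and Ctss, a cathepsin that trims the invariant chain, was lower. Cd74, H2-Aa, H2-Ab1 and H2-Eb1 were called in both comparisons, lower than in complement-high and higher than in Gpnmb, Spp1 and Mmp12 cells. Of 20 lipid-associated genes 17 were called lower and 1 higher (median -1.58), with Trem2, the lipid-sensing receptor, at -1.72. Of 18 lysosomal genes 15 were lower and 2 higher, and of 18 cell cycle genes 7 were lower and none higher. All 16 type I interferon genes were higher, 8 of them called. Arg2 was 1.09 higher than in complement-high cells and 1.12 higher than in Gpnmb, Spp1 and Mmp12 cells, while Arg1 was called in neither comparison. Fibroblast genes were called higher in both comparisons, 5 of 8 tested and 8 of 9 tested, beside the collagen-rich barcodes described above. Neutrophil genes were called higher too, Cxcr2 and Il1f9 among 7 tested against complement-high cells and Csf3r, Cxcr2 and Il1f9 among 9 tested against Gpnmb, Spp1 and Mmp12 cells, while Retnlg was called lower in the first and Mmp9 in the second. Csf3r, a receptor of neutrophils, was detected in 9.70% of gated, 6.94% of complement-high and 9.47% of Gpnmb, Spp1 and Mmp12 cells, and Cxcr2 in 6.33%, 1.78% and 2.74%. The median depths were 1488.5, 1698 and 2589.5 UMIs in the same order. Pooled over libraries, Csf3r held 70.3, 32.2 and 27.3 CPM and Cxcr2 58.3, 14.3 and 11.6 CPM. Without the cells of any class that held 2 or more neutrophil-marker UMIs, Il1b was at 3.42 and 4.03 and Ccr2 at 0.92 and 2.28 in the same 2 comparisons, all called. Csf3r, itself among those markers, was then at 0.53 against Gpnmb, Spp1 and Mmp12 cells and lost its call (edgeR adjusted p = 0.40).

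**Figure D2:**
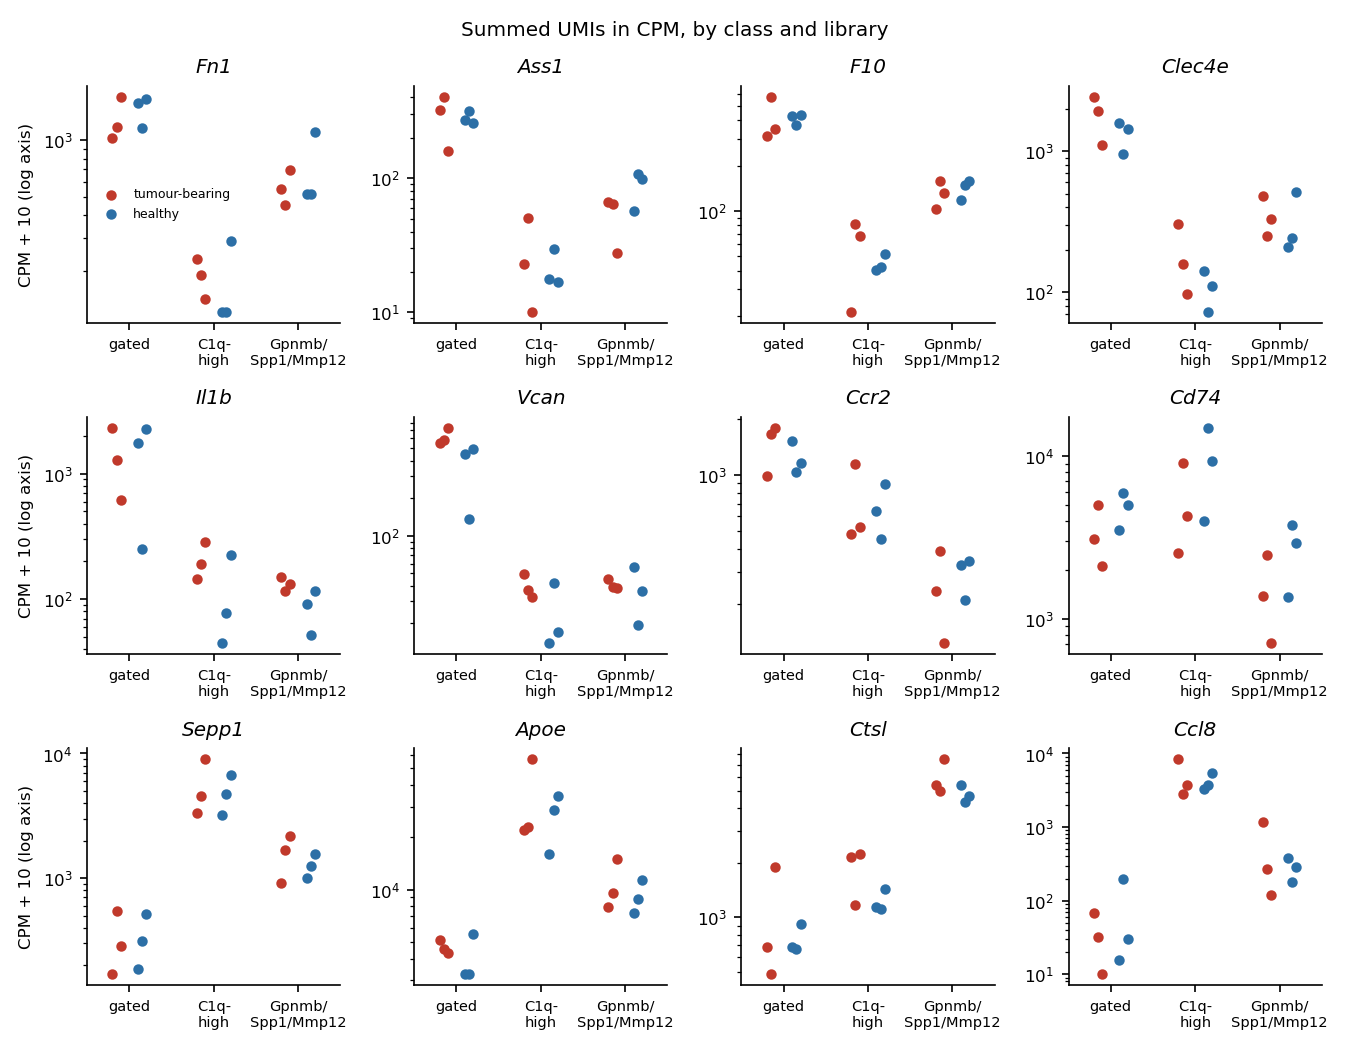
Summed counts in CPM plus 10, on a log axis, for 12 genes in gated, complement-high (C1q-high) and Gpnmb, Spp1 and Mmp12 cells. Each point is a library, red for tumour-bearing and blue for healthy, with days 7, 14 and 21 from left to right. Ass1, F10, Clec4e and Vcan have all 6 gated points above all other points, and Cd74 is intermediate on average with overlapping points.

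**Figure D3:**
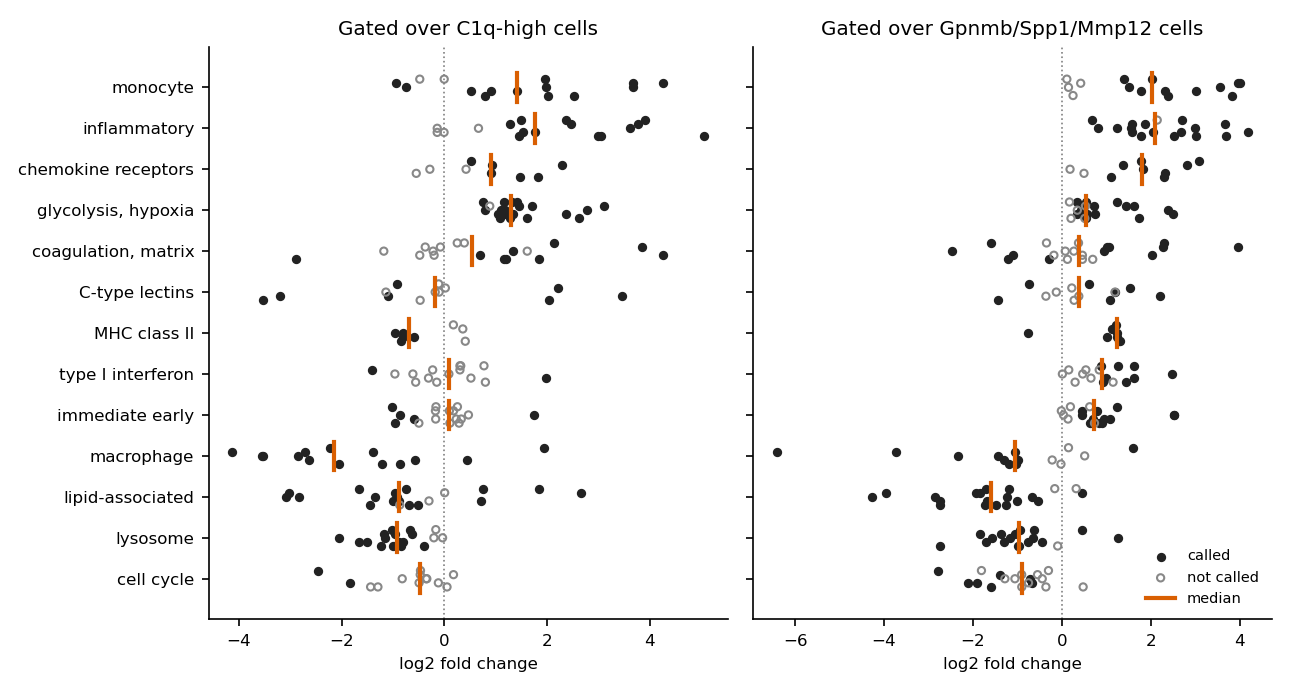
Log2 fold change of each tested gene, by gene list, for gated over complement-high cells (left) and gated over Gpnmb, Spp1 and Mmp12 cells (right). Filled points were called (adjusted p under 0.05), open points were not, and the bar is the list median. MHC class II changes side between the panels, whereas monocyte and inflammatory medians are above 0 and lysosomal medians below 0 in both.

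The C-type lectin genes beside Clec4n were followed separately, since Clec4n was used by the gate and its neighbours were not. Clec4d (chr6:123262107-123275268) encodes the receptor MCL and Clec4e (chr6:123281789-123289871) encodes Mincle, both receptors for glycolipids of mycobacteria. Clec4e held 2423, 1929 and 1102 CPM in gated cells of tumour-bearing mice at days 7, 14 and 21, against 1582, 937 and 1418 CPM in those of healthy mice. Every gated library lay above every library of the other classes. The mean of 1565 ± 547 CPM compared with 137 ± 83.0 CPM in complement-high and 328 ± 130 CPM in Gpnmb, Spp1 and Mmp12 cells, log2 fold changes of 3.46 and 2.22 (edgeR adjusted p = 3.3e-12 and 4.7e-14). Clec4d averaged 578 ± 203 CPM in gated cells, 129 ± 38.9 CPM in complement-high and 265 ± 41.6 CPM in Gpnmb, Spp1 and Mmp12 cells, 2.03 and 1.08 on the log2 scale. Clec5a, a receptor that signals through DAP12, was 2.21 and 1.53 higher. Clec4a1 and Clec4a3, of the same gene cluster on chromosome 6, were called higher only against the Gpnmb, Spp1 and Mmp12 cells, at 1.20 and 0.62, with -0.18 and -0.11 against complement-high cells. The difference between those pairs of values was not tested. Over the list, 3 of 13 lectin genes were called higher and 4 lower against complement-high cells, and 5 of 13 higher and 2 lower against Gpnmb, Spp1 and Mmp12 cells. Over all genes tested, 9.78% were called higher and 10.9% lower in the first comparison, and 9.38% and 9.85% in the second. Of the genes through which these receptors signal, Fcer1g, the Fc receptor gamma chain, averaged 1659 ± 351 CPM in gated and 1506 ± 469 CPM in complement-high cells and was not called, whereas Malt1, an adaptor and protease, was 2.01 higher and Prkcd, a kinase, 0.89 higher.

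Clotting and matrix genes were also followed. F7 averaged 197 ± 68.1 CPM in gated cells, 80.2 ± 45.1 CPM in complement-high and 422 ± 94.4 CPM in Gpnmb, Spp1 and Mmp12 cells. It was therefore higher than in the first class (log2 fold change 1.17, SE 0.26, edgeR adjusted p = 0.0031) and lower than in the second (-1.20, SE 0.14, adjusted p = 4.2e-08), whereas its neighbour F10 was highest in gated cells by level. F13a1, the factor XIII subunit that cross-links fibrin, averaged 412 ± 154 CPM in gated and 95.5 ± 39.9 CPM in Gpnmb, Spp1 and Mmp12 cells, 2.04 higher, and was not called against complement-high cells. Tgfbi, a collagen-binding matrix protein, was 1.33 and 2.31 higher. Plaur, the urokinase receptor, and Procr, the protein C receptor, were 2.13 and 3.86 higher than in complement-high cells. Of 18 tested genes of this list 8 were called higher and 1 lower against complement-high cells, and of 21 tested 7 higher and 5 lower against Gpnmb, Spp1 and Mmp12 cells. The shares over all genes tested were 9.78% higher and 10.9% lower in the first comparison, and 9.38% and 9.85% in the second.

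Tumour-bearing and healthy mice were compared within the gated cells, with day as a block. Retnla was lower in gated cells of tumour-bearing mice, and it was the only gene outside the gate that passed in edgeR. Of 2964 genes tested 2 were called (0.0675%), 1 higher (0.0337%) and 1 lower (0.0337%), the higher one being the gate gene S100a8, and 80 had an unadjusted p under 0.05. DESeq2 called 3 genes, the third being Saa3.

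S100a8, a subunit of the antimicrobial protein calprotectin, held 1073, 2301 and 1789.7 CPM in gated cells of tumour-bearing mice at days 7, 14 and 21, against 205, 251 and 261 CPM in those of healthy mice. The groups did not overlap. The log2 fold change was 2.80 (SE 0.26), given as a description, since S100a8 is a gate gene, capped through the limit of 5% of a cell's UMIs, and nothing is read from its call. Beside it, S100a8 in lymphocyte-marker cells of the same libraries was 272, 0 and 689 CPM in tumour-bearing scaffolds (41, 7 and 39 cells) and 210, 153 and 102 CPM in healthy ones (27, 31 and 63 cells), and S100a8 and S100a9-rich cells were more frequent in the tumour-bearing library of each day, as given above. The part of free RNA in these levels was not tested. Gated cells with 2 or more UMIs of the other neutrophil markers numbered 12, 0 and 3 in tumour-bearing and 8, 0 and 4 in healthy libraries, and without them the log2 fold change of S100a8 was 3.09.

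Retnla encodes the resistin-like molecule RELM-alpha, made by mouse macrophages in response to interleukin-4. It held 0, 45.1 and 0 CPM in gated cells of tumour-bearing mice at days 7, 14 and 21, against 39.8, 1607 and 73.4 CPM in those of healthy mice. Each tumour-bearing library was below its healthy pair, but tumour-bearing day 14 was above healthy day 7. The log2 fold change was -5.26 (SE 0.57, edgeR adjusted p = 0.00068), and it rested on few cells. Retnla was detected in 0, 3 and 0 tumour-bearing cells and 2, 8 and 1 healthy cells, and 99 of 192 UMIs of healthy day 14 lay in 1 cell. The call was lost without the healthy day 14 library (adjusted p = 0.64), without the tumour-bearing day 14 library (0.083) and with cells thinned to 500 UMIs (0.53). Complement-high cells of the same libraries held 0, 620.0 and 19.99 CPM of Retnla in tumour-bearing and 0, 1018 and 998 CPM in healthy mice.

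Saa3, an acute-phase apolipoprotein, held 40.8, 293 and 613 CPM in gated cells of tumour-bearing mice, against 28.5, 25.1 and 40.8 CPM in healthy ones (log2 fold change 3.08, edgeR adjusted p = 0.067). The antiprotease-like gene 1100001G20Rik held 97.9, 180.5 and 191 CPM, against 17.1, 8.37 and 40.8 CPM (2.71, adjusted p = 0.083). Without the fibroblast-marker cells the status comparison called 3 genes, and 1100001G20Rik was among them (2.66, edgeR adjusted p = 0.029). S100a9, the partner of S100a8, held 1085, 1884 and 1906 CPM, against 751, 192 and 624 CPM (1.72, and 2.84 without the neutrophil-marker cells). It is a gate gene as well, and these values are a description. Egr1 and Btg2, genes induced quickly by many stimuli, had values of 1.5 and 1.28, and on the other side Ccdc124, Lyz1, Pf4 and Prelid2 had values between -0.79 and -1.54. Ccl24 had a value of -0.86 (SE 0.24) and Clec4n of -0.27, given as descriptions. Fn1, Ass1 and F10 had log2 fold changes of -0.17, 0.00 and -0.04, with SEs of 0.23 to 0.35.

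Beyond those genes the lists gave no call between tumour-bearing and healthy mice. The 8 tested MHC class II genes all had negative values (median -0.51, against -0.00 over all genes tested), and the 6 tested CC chemokine genes likewise (median -0.50). The 6 tested cell cycle genes of 19 listed all had positive values (median 1.46), among them Mki67, a proliferation marker, at 107 ± 27.7 CPM in tumour-bearing and 23.2 ± 16.4 CPM in healthy mice (log2 fold change 2.35, edgeR adjusted p = 0.51). None of these passed.

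**Figure D4:**
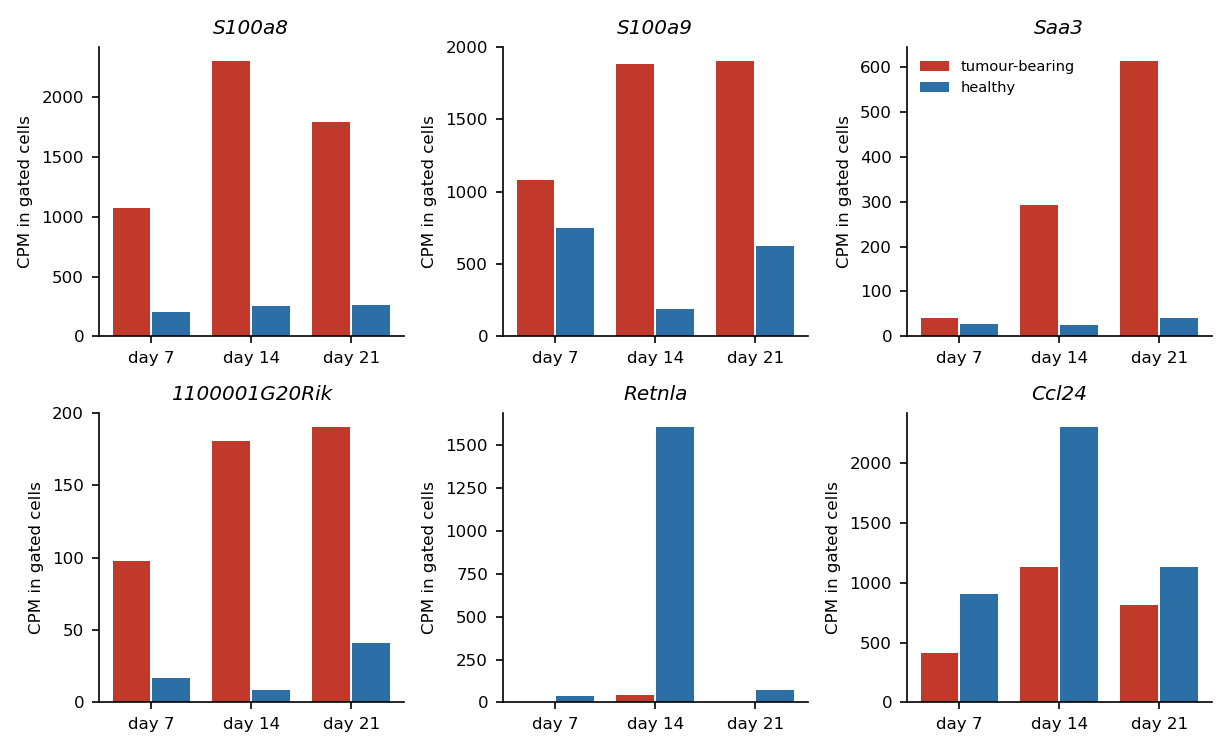
Levels in CPM of 6 genes in gated cells by day, tumour-bearing (red) left of healthy (blue). S100a8 bars of tumour-bearing mice, 1073 to 2301 CPM, stand above all healthy bars, and the Retnla panel is filled by healthy day 14 at 1607 CPM.

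Change with day was fitted over all 6 libraries with tumour status as a term, in log2 per week. None of 2964 genes was called by edgeR (0%), with 89 at an unadjusted p under 0.05, and DESeq2 called 1. Mmp19, a matrix metalloproteinase, held 131, 440 and 1119 CPM at days 7, 14 and 21 in tumour-bearing mice, against 205, 351.5 and 648 CPM in healthy mice. It was higher at each later day in both groups, with a slope of 1.18 per week (SE 0.22, adjusted p = 0.11), and was called without the fibroblast-marker cells (1.17). Stfa2l1, a stefin inhibitor of cysteine proteases, held 184, 90.2 and 24.9 CPM in tumour-bearing mice, against 114, 16.7 and 0 CPM in healthy mice (-1.88 per week, adjusted p = 0.14). Saa3, Atf3, Plin2, Mgea5 and Klf4 had slopes of 0.67 to 1.3 per week, and Mxd1, Ifi204, Ifi44, Samd9l and Gm10800 of -0.83 to -2.19 per week, none of them called. The 7 tested type I interferon genes all had negative slopes (median -0.65, against 0.00 over all genes), with Isg15, a ubiquitin-like protein, at -0.90, and 14 of 16 clotting and matrix genes had positive ones (median 0.22).

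Gated cells also differed among themselves. Cells with Ccl24 were set against cells without it in the 4 libraries that held 20 or more of each, tumour-bearing days 7 and 14 and healthy days 14 and 21. Cells with Ccl24 were called higher in the CC chemokine genes Ccl2, Ccl6 and Ccl9 and the macrophage factor Maf. They were called lower in Ccl4, Il1f9, Irg1 and ferritin heavy chain. The calls of Maf, Ccl4 and ferritin heavy chain were lost when Clec4n was matched, as given below. A cell without Ccl24 had entered the gate through 2 or more Clec4n UMIs, so the subsets also differ in how they were chosen, and gate genes are left out. Of 1730 genes tested 36 were called (2.08%), 21 higher (1.21%) and 15 lower (0.867%).

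Ccl2, the chief attractant of monocytes, held 377 (tumour-bearing day 7), 62.2 (tumour-bearing day 14), 597.5 (healthy day 14) and 217 CPM (healthy day 21) in cells with Ccl24, against 28.4, 24.7, 22.6 and 0 CPM in cells without. It was higher in all 4 libraries, with a log2 fold change of 4.09 (SE 0.48, edgeR adjusted p = 1.7e-06). Ccl6 (chr11:83587886-83593087) and its neighbour Ccl9 (chr11:83572917-83578636) were 1.08 and 1.05 higher. Maf averaged 693 ± 169 CPM with and 274 ± 105 CPM without Ccl24 (1.3). Lpl, lipoprotein lipase, was 0.86 higher and Fn1 0.64 higher, but DESeq2 called neither (adjusted p = 0.12 and 0.14), and of 19 alternatives 11 lost the Lpl call and 12 the Fn1 call. Ass1 at -0.52 and F10 at 0.36 did not pass. Retnla was called higher as well, with a single UMI in the cells without Ccl24 and 2536 CPM in healthy day 14 cells with it. DESeq2 did not call Retnla (adjusted p = 0.36). Collagen genes were called too, since the 5 collagen-rich barcodes all held Ccl24.

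Il1f9 held 14.5, 20.7, 13.3 and 17.4 CPM in cells with Ccl24 in the same 4 libraries, against 499, 396, 249 and 338 CPM in cells without. The subsets did not overlap, and the log2 fold change was -4.35 (SE 0.41, edgeR adjusted p = 3.6e-08). Irg1 averaged 77.8 ± 49.1 CPM with and 529 ± 279 CPM without Ccl24 (-2.49), and Fth1, ferritin heavy chain, 8268 ± 1062 and 15176 ± 2292 CPM in the same order (-0.87). Ccl4, a CC chemokine, was at -2.98, Cxcl16 at -1.38, Ccrl2 at -1.25, Slpi at -1.20, Clec4e at -1.13, Igsf6 at -0.995, Clec4d at -0.88 and Il1b at -0.87. DESeq2 did not call Ccrl2, Slpi, Igsf6, Clec4d or Il1b (adjusted p = 0.078, 0.096, 0.20, 0.12 and 0.28). Igsf6 lost its call in 10 of 18 alternatives, and Ccrl2 and Clec4d each in 8 of 18. Slpi lost its call in 7 of 19, and Il1b in 9 of 19, with a change of sign in 1 more. Niacr1 was also called lower, with 3 UMIs in cells with Ccl24. Neutrophil markers moved with the split: Csf3r was detected in 2.74% of cells with Ccl24 and 15.7% of cells without, and Cxcr2 in 2.74% and 9.41%, at median depths of 1392 and 1557 UMIs.

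Without the neutrophil-marker cells 29 genes were called, all among the 36. Il1f9 was then at -3.83, Irg1 at -2.13 and Clec4e at -1.12, all called, and the call of Il1b was lost (-0.65, adjusted p = 0.28). Without the fibroblast-marker cells 12 genes were called, all among the 36. They were Retnla, Ccl2, Maf, Ccl6 and Ccl9, higher with Ccl24, and Fth1, Clec4e, Slpi, Cxcl16, Irg1, Ccl4 and Il1f9, lower. When cells of both subsets had to hold 2 or more Clec4n UMIs, 6 genes were called, again all among the 36, namely Ccl2, Ccl9 and Ccl6 higher and Pla2g7, Irg1 and Il1f9 lower. Among the calls lost there were Maf (0.80, edgeR adjusted p = 0.54), Ccl4 (-2.05, 0.22) and Fth1 (-0.49, 0.54). Clec4e (-0.60, 0.32) and Clec4d (-0.38, 0.78) lost theirs too.

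**Figure D5:**
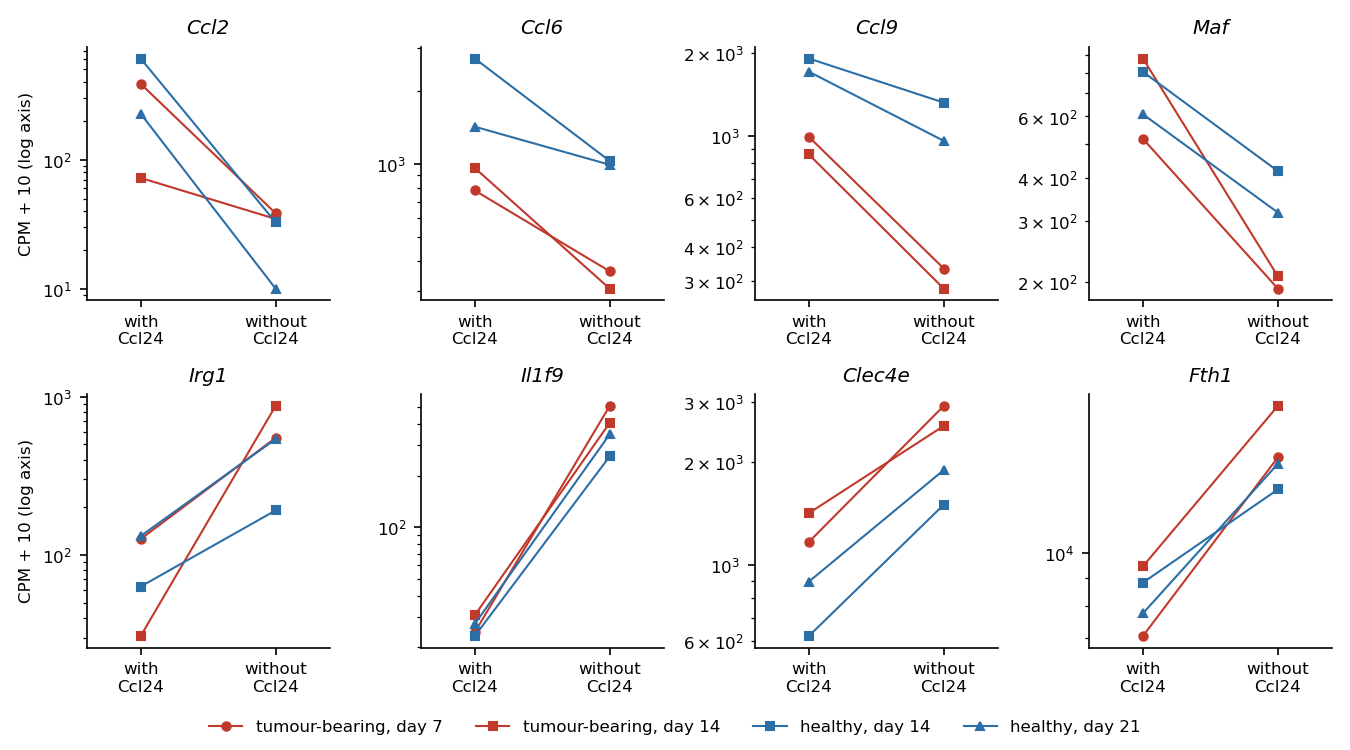
Summed counts in CPM plus 10, on log axes, for 8 genes in gated cells with Ccl24 (left) and without Ccl24 (right), with a line for each of 4 libraries. The lines fall towards the cells without Ccl24 for Ccl2, Ccl6, Ccl9 and Maf and climb for Irg1, Il1f9, Clec4e and Fth1 in every library.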

How the data were processed

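Each library was deposited as a table of raw UMI counts, with genes in rows and barcodes in columns, made by the authors from Drop-seq reads. Per the submitters' processing notes, the build was mm10 and Seurat version 2 was used, whereas no aligner or annotation is named in the sources used. Barcodes with 200 or more genes and under 20% mitochondrial UMIs were kept, and one found in 2 or more libraries of a day stayed only where its UMIs were at least 5 times the next. Counts of gated cells were summed per library where it had 20 or more, and tested with edgeR 4.0.16 (TMM, filterByExpr, quasi-likelihood) in R 4.3.3, with Benjamini-Hochberg adjustment over all genes tested. DESeq2 1.42.0 was an alternative. Shares were compared with exact permutation tests in SciPy 1.17.1. Levels are CPM of the summed class. The fits were tested on simulated data.

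The day block pairs libraries because the labels call the healthy mice time-matched. Across 2964 genes, deviations of same-day libraries correlated at -0.03, 0.06 and 0.13. The labels give replicates by day only.

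Members and gene lists were chosen with earlier results of these data known. Of 460 listed genes 458 were found, 6 of them by an older symbol. Named genes were those called that moved alike in every library or day pair, with at least 50 CPM in the higher side, up to 12 per direction by fold change, or the 6 with the smallest p where fewer than 6 were called, plus gate genes, label markers and list members. Pla2g7 falls outside that rule and was named after its values were seen. The alternatives were other scaling, no filter on low counts, no block, each library left out, gates of 1 and 3 UMIs, 400 genes per cell, no barcode rule and thinned cells. Added after seeing the data were merged barcodes, cells with lymphocyte, fibroblast or neutrophil markers left out, healthy libraries alone and a matched Clec4n minimum. Promoter sequences are from RefSeq on GRCm38.p6.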

Additional observations from a re-analysis of the deposited data

Results flagged for a closer look

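Dixon's test, which flags about 1 in 20 by chance, was run on 61 values over the 6 libraries. These were levels of named genes in gated cells and the share of gated cells. For 11 of the gene levels a library lay far from the others. Healthy day 14 was the high library for Ccl2 (385 CPM, the next being 126), Ccl8 (184 against 57.1), Ear2 (209 against 102), Gas6 (50.2 against 16.6) and Retnla (1607 against 73.4). That library had the lowest median, 780 UMIs per gated cell, and the most cells with Ccl24, 69.4%. Healthy day 7 was high for Cxcl10 (347 against 36.7), Ly6c2 (353 against 183) and Zranb3 (5.69 against 0, a single UMI). Tumour-bearing day 21 was high for Chi3l3 (224 against 41.8) and low for Gpr84 (8.29, the next being 67.0). Tumour-bearing day 7 was high for Syngr1 (40.8 against 11.3).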

How the results depend on the processing

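The difference in mean share stayed negative under every alternative, from -4.06 to -1.42 points when a library was left out. Single day pairs did change sign. The tumour-bearing share was the higher at day 7 with thinned cells (4.20% against 4.13%) and with a gate of 1 UMI (12.67% against 12.58%). At day 14 it was the higher with 400 genes per cell (7.65% against 7.23%). The exact sign-flip permutation test over day pairs, the replicate block, gave p = 0.25, the smallest it can reach, for -2.88 points. The status comparison called 8 genes with no filter on low counts, 1 with no day block, 5 with a gate of 1 UMI and 1 to 15 with a library left out (11 and 15 without the tumour-bearing and healthy day 7 libraries, 1 and 3 without those of day 14, 4 without tumour-bearing day 21). Without a day 7 library the added genes included Saa3, 1100001G20Rik and collagen and matrix genes, and the other library of that day then adds nothing through the block. The day fit called 1 gene with DESeq2, 16 with no filter, 1 without the status term, 2 without fibroblast-marker cells and 0 to 11 with a library left out, the 11 without healthy day 7. The complement-high comparison called 658 genes with DESeq2, 517 without the library block, 207 with thinned cells and 715 to 1005 with a library left out. Without fibroblast-marker cells it called 1007. The Gpnmb, Spp1 and Mmp12 comparison called 663 without the block, 198 with thinned cells and 1023 to 1409 with a library left out. Without fibroblast-marker cells it called 1450. The Ccl24 comparison called 8 with DESeq2, 92 with no filter, 2 without the block, 1 with thinned cells, 12 without fibroblast-marker cells, 6 with a matched Clec4n minimum and 9 to 45 with a library left out (9 without tumour-bearing day 7). With thinned cells Il1b turned to 0.045 (adjusted p = 0.98) there, and Ccl6 to 0.061 (adjusted p = 0.87) against the Gpnmb, Spp1 and Mmp12 cells. Thinning left 5 libraries with enough cells, or 2 for the Ccl24 comparison, and tested fewer genes. Otherwise the cause was not tested. Over the genes named here and further list members, 55 of 62 called against complement-high cells were called in every alternative that tested them, and 46 of 68 against the Gpnmb, Spp1 and Mmp12 cells, but 1 of 21 in the Ccl24 comparison, Il1f9. Without the barcode rule the share difference was -1.98 points, and with barcodes alike in 11 bases merged it was -2.97 points. The status, day and Ccl24 comparisons called 2, 0 and 36 genes without the rule, and 2, 0 and 35 with barcodes merged. In the same order, 1034 and 1057 were called against complement-high cells, and 1464 and 1441 against Gpnmb, Spp1 and Mmp12 cells. Between 32 and 116 gated cells per library limit what low genes can show.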

Other observations

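Irg1 was detected in 94 gated cells, and these cells differed from the 380 without it in more than Irg1. Clec4n was detected in 98.9% of cells with Irg1 and 82.1% of cells without, and Ccl24 in 20.2% and 52.6%, at median depths of 1438.5 and 1499 UMIs. Both are gate genes, and a gated cell without Ccl24 must hold Clec4n, so their shares are tied to each other by the rule. Clec4e, the Mincle gene, was detected in 85.1% and 61.6%, Il1b in 57.4% and 32.1%, and Il1f9 in 30.9% and 2.89%. The neutrophil markers Csf3r and Cxcr2 were detected in 22.3% and 14.9% of cells with Irg1 and in 6.58% and 4.21% of cells without, and their part in these shares was not tested. Cd74 was detected in 47.9% of cells with Irg1 and 64.7% of cells without, and Ccr2 in 37.2% and 52.4%. S100a8 summed to 2620 CPM in cells with Irg1 and 309 CPM in cells without. These are shares of cells pooled over libraries, with no test.

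The same gate found 97 cells in the lung libraries and 15 in the spleen libraries. In the scaffold, Fn1 was detected in 60.1%, Ass1 in 30.0% and F10 in 35.4% of gated cells, against 9.28%, 1.03% and 24.7% of those of the lung, at median depths of 1488.5 and 2401 UMIs. Ear1, a ribonuclease of alveolar macrophages, was detected in none of 474 scaffold cells, which, at 3 counts, allows up to 0.633%, and in 47.4% of the lung cells. Chi3l3 was detected in 4.01% of scaffold and 64.9% of lung cells. Clec4n was detected in 85.4% and 87.6%, and Irg1 in 19.8% of scaffold cells and none of 97 lung cells, which, at 3 counts, allows up to 3.09%. These shares are pooled over libraries, and no test was made.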
